A study of Mus musculus and Homo sapiens with 12 samples.

Results

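The Hox genes are described here: the 39 mouse genes of the clusters Hoxa, Hoxb, Hoxc and Hoxd and their 39 human counterparts, 78 of the 113167 gene records in the count files. They were taken by name and by their protein-coding annotation, with no measured value in the rule. Wild-type mouse embryonic stem (mES) cells, which carried no treatment and were grown with LIF, CHIR99021 and PD0325901 after feeder cells had been cleared on gelatin, were compared with wild-type K562 cells, an established human leukaemia line. Puromycin is listed in the K562 medium by the labels but not by the methods for untransduced cells. From each line, chromatin-associated RNA (caRNA) was fragmented and sequenced as 3 Input libraries, and as 3 IP libraries after pull-down with an antibody to 5-methylcytosine (m5C). Groups were read from the library titles, since the antibody field went against them. Neither ages nor separate cultures were stated in the labels, so p-values measure only the spread between these libraries, and in bulk samples fewer cells of a type and less RNA per cell cannot be told apart.

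Hox genes encode homeodomain transcription factors that give cells their identity along the body axis. They lie in 4 clusters in which paralogue number, from 1 to 13, follows the place of expression from the hindbrain to the tail. In pluripotent cells the clusters are a classic target of Polycomb repression, while Trithorax and MLL complexes keep them active in later lineages, and HOXA and HOXB genes are used in blood progenitors. Here the paralogue groups 1 to 4 are called anterior, 5 to 8 central and 9 to 13 posterior.

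Counts in genes ran from 29007088 to 34752646 in mES Input, 473398 to 592324 in mES IP, 10477119 to 11865285 in K562 Input and 93110 to 111286 in K562 IP libraries. A floor of 3 counts thus stood for 0.0863 to 0.103, 5.06 to 6.34, 0.253 to 0.286 and 27.0 to 32.2 CPM (counts-per-million). Among the K562 Input libraries, replicate 1 differed from replicates 2 and 3 by less than the sampling noise (chi-square per degree of freedom 0.912 and 0.918), so K562 results were also computed with the 3 summed to 1. Of the 8 pluripotency genes listed, 7 had counts in mES Input, where they summed to between 1615 and 1639 CPM, and Sox2 had no countable base. NANOG, POU5F1 and ZFP42 had no count in K562 Input, but 3 of the 7 pluripotency genes measured in human had counts. These summed to between 391 and 404 CPM, and ESRRB was lower than in mES Input by only 0.99 on the log2 scale. Of 8 erythroid and leukaemia-line genes, 7 had counts in K562 Input, summing to between 851 and 874 CPM, and HBG2 had no countable base. In mES Input 5 of 6 measured had counts, summing to between 299 and 305 CPM. Neither list was thus confined to its line.

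A zero in these files is not always a measurement. The deposited counts behaved as strand-specific counts over whole gene bodies from which reads shared by overlapping genes were dropped. Of 6478 mouse genes with no base free of another gene on their own strand, 99.8% had no count in any Input library, against 44.3% of 6079 genes whose body was covered only by a gene on the other strand and 43.9% of 29481 genes free on both strands. The human shares were 97.3%, 55.5% and 51.8%. The 8 mouse members that could therefore hold no count were Hoxa3, Hoxa4, Hoxa5, Hoxa6, Hoxc6, Hoxc8, Hoxc9 and Hoxd4. The 12 such human members were HOXA4, HOXA5, HOXA6, HOXB4, HOXB5, HOXB8, HOXB9, HOXC5, HOXC6, HOXC8, HOXC9 and HOXD4. All 20 were at 0 in every library, and nothing is said of their level. Countable bases, those free of another gene on the same strand, remained for 31 mouse and 27 human members, and levels between genes are given as CPM per kb of countable body. Under 10% of the body was countable for Hoxd3, HOXA9, HOXA10 and HOXB6.

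Hox RNA was scarce in the Input libraries of mES cells. All members together took 1479 counts over the 3 libraries, and only 3 reached a mean of 1 CPM. These were Hoxc12, Hoxb9 and Hoxc13, all posterior genes, of which Hoxc13 is known for its part in hair and nail formation. Hoxc12 (ENSMUSG00000050328.2, chr15:102936757-102938609 of GRCm38, plus strand) had 106, 122 and 141 counts, or 3.80 ± 0.223 CPM (SD, n = 3). Hoxb9 had 96, 143 and 120 counts (3.70 ± 0.551 CPM) and Hoxc13 had 110, 112 and 103 counts (3.38 ± 0.414 CPM). The CPM ranges of the 3 genes overlapped, so they did not differ beyond their spread. Per kb of countable body their order was clearer, with 2.05 ± 0.120 CPM per kb for Hoxc12, 0.719 ± 0.107 for Hoxb9 and 0.439 ± 0.0537 for Hoxc13.

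The other 28 countable mouse members were below 1 CPM on average. Hoxc4, an anterior gene, had 20, 18 and 38 Input counts. Hoxc11 had 18, 26 and 19, and Hoxc5 had 11, 19 and 26. These 3 Hoxc genes, next to each other in the order of levels, overlapped in range. Hoxa7 had 21, 7 and 20 counts and Hoxb13 had 6, 14 and 17. Hoxb6 had 7, 6 and 5 counts. The Hoxd genes held the fewest, led by Hoxd8 with 6, 3 and 3 counts, and Hoxa13 and Hoxd12 were at 0 in all 3 Input libraries, which allows up to 3 counts over the group at this depth.

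Summed over its members, the Hoxc cluster reached 9.25 ± 0.225 CPM in mES Input (SD, n = 3), Hoxb 4.70 ± 0.622, Hoxa 0.993 ± 0.0694 and Hoxd 0.309 ± 0.0733. The ranges of the 4 clusters did not overlap. Hoxc12 alone made 41.2% of the Hoxc counts and Hoxb9 made 78.6% of the Hoxb counts, so each of these sums rested largely on its highest gene. By position, the anterior members summed to 1.40 ± 0.199 CPM, the central ones to 1.54 ± 0.375 and the posterior ones to 12.3 ± 0.706. The median member was low at all positions, with 0.0102 CPM per kb for 9 anterior, 0.0290 for 7 central and 0.0153 for 15 posterior genes. As a description across genes of the same libraries, Input level per kb rose with paralogue number in Hoxc (Spearman's rho 0.89, 6 genes) and Hoxb (0.78, 10 genes), fell with it in Hoxa (-0.89, 7 genes) and showed no order in Hoxd (0.02, 8 genes). In single libraries rho ran from 0.83 to 0.89 in Hoxc, 0.50 to 0.85 in Hoxb, -0.85 to -0.49 in Hoxa and 0.02 to 0.23 in Hoxd. The Hoxa order leaves out Hoxa3 to Hoxa6, and Hoxa2, Hoxa11 and Hoxa13 had 1, 1 and 0 Input counts.

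Markers of other cells moved beside these low values. The 11 fibroblast genes listed for feeder cells summed to between 68.4 and 70.9 CPM in mES Input, with Col1a1 at 29.4 and Col1a2 at 19.7 CPM, and Lum was at 0. The 10 differentiation genes listed summed to between 15.1 and 18.4 CPM, with Eomes at 8.79 and Gata4 at 5.30 CPM, and Sox1 had no countable base. In IP the fibroblast genes summed to between 139 and 163 CPM, with 4 of 9 tested genes higher and 3 lower, Col1a1 (-0.54) and Col1a2 (-1.83) among the latter. The 4 higher were among 5 genes under 1 CPM in Input. The 3 lower were among 4 at 1 CPM or more, where 58.2% of all tested genes were lower. The differentiation genes summed to between 187 and 237 CPM in IP, with 7 of 9 tested genes higher, 6 of them under 1 CPM in Input, where 91.6% of all tested genes were higher. Their part in the Hox counts was not tested.

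**Figure D1:**
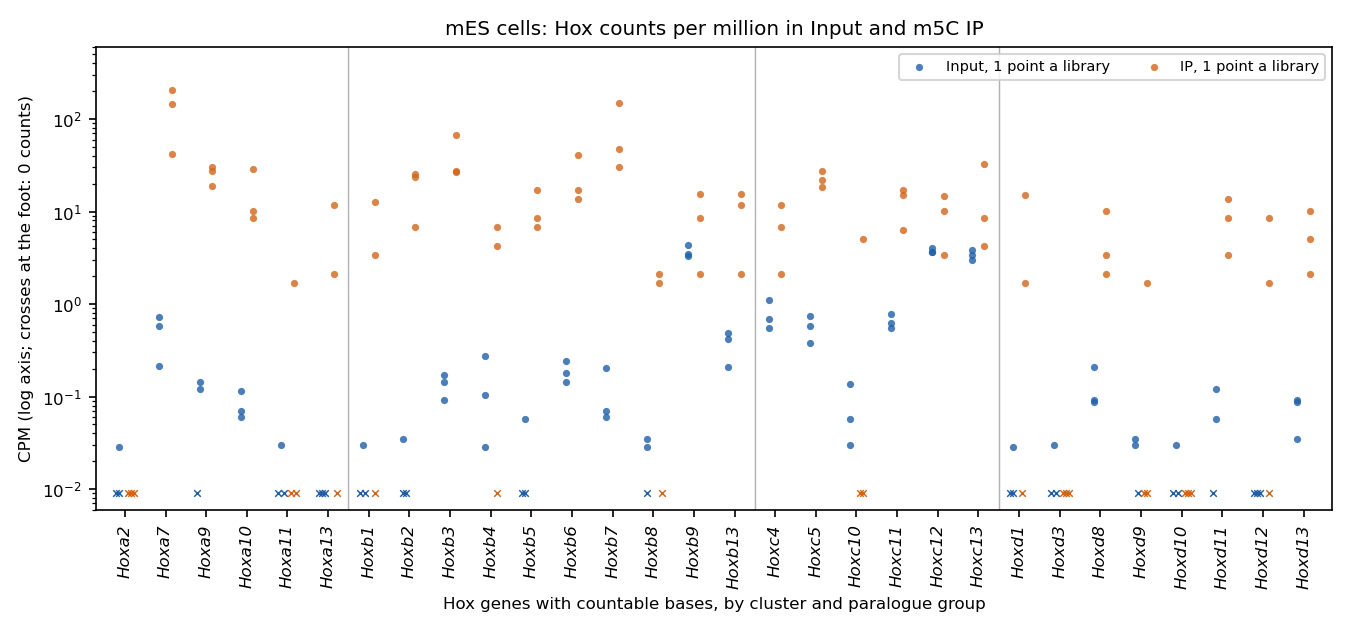
Level in CPM of 30 countable mouse Hox genes in mES cells, on a log axis, with 1 point for each of the 3 Input (blue) and 3 IP (orange) libraries and crosses at the foot for libraries with 0 counts; vertical lines part the clusters A to D. Only Hoxb9, Hoxc12 and Hoxc13 have all Input points above 1 CPM, and their IP points overlap or lie close to the Input points, while Hoxa7 and Hoxb7 have the highest IP points.

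The m5C IP libraries of mES cells ordered the Hox genes in another way. Hoxa7 (ENSMUSG00000038236.8, chr6:52214491-52221854, minus strand), a central gene, had 97, 86 and 25 IP counts, or 131 ± 82.4 CPM (SD, n = 3). Hoxb7 (ENSMUSG00000038721.8, chr11:96286623-96290162, plus strand) had 70, 18 and 28 IP counts against 2, 2 and 7 in Input, or 75.2 ± 63.4 CPM. Both were above every Input value in all 3 IP libraries, although replicate 3 of Hoxa7 and replicate 1 of Hoxb7 stood apart from the other libraries. These paralogues took 41.9% of the 774 Hox counts in IP, and 17.8 ± 11.2 and 21.3 ± 17.9 IP CPM per kb of countable body.

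Other members of the anterior, central and posterior groups stood higher in IP with groups that did not overlap, as all IP values lay above all Input values in 47.7% of the genes tested. Hoxb3 had 32, 16 and 16 IP counts against 5, 3 and 5 in Input. Hoxb2, a hindbrain gene, had 12, 14 and 4 against 1, 0 and 0. Hoxb6 had 8, 8 and 24 IP counts, above its 7, 6 and 5 in Input once scaled to depth. Hoxb5 had 4, 4 and 10 against 0, 0 and 2. Hoxa9, known for its role in blood progenitors, had 9, 16 and 18 against 0, 4 and 5. Hoxa10 had 4, 6 and 17 against 2, 2 and 4. In the Hoxc cluster IP counts were lower for a given Input. Hoxc5 had 13, 13 and 11 IP counts, Hoxc11 had 3, 10 and 9, and Hoxc4 had 1, 4 and 7. Hoxb13 had 1, 9 and 7. The Hoxd genes past the threshold were Hoxd8 with 1, 2 and 6 IP counts, Hoxd11 with 4, 8 and 2 against 0, 4 and 2 in Input, and Hoxd13, a gene of digit formation, with 1, 3 and 6 against 1, 3 and 3. The 3 genes that led Input were modest in IP: Hoxc12 had 7, 6 and 2 counts, Hoxb9 had 1, 9 and 5 and Hoxc13 had 2, 19 and 5, where replicate 2 held most of the counts.

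The IP sums of the clusters were 182 ± 68.8 CPM for Hoxa, 198 ± 81.4 for Hoxb, 68.6 ± 17.6 for Hoxc and 29.05 ± 11.5 for Hoxd (SD, n = 3). Hoxa and Hoxb overlapped in range, and both lay above Hoxc, which lay above Hoxd. Hoxa therefore went from 6.49% of the Hox counts in Input to 38.0% in IP, and Hoxc from 60.6% to 14.9%. Hoxa7 alone made 70.7% of the Hoxa IP counts. Without it Hoxa summed to 50.9 CPM, below the Hoxc sum of 68.6, which was 45.9 without its own highest member. By position, the central members held most in IP, with 269.9 ± 124 CPM, against 122 ± 41.2 for the posterior and 85.2 ± 29.6 for the anterior members. Hoxa7 and Hoxb7 made most of the central sum, which was 63.6 ± 20.1 CPM without them. The other 2 sums keep their highest members, so this value gives no order of the 3 positions. The median IP level was 1.60 CPM per kb for the anterior, 2.60 for the central and 1.76 for the posterior members.

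In edgeR's quasi-likelihood test of log2 IP/Input with Benjamini-Hochberg adjustment over 20244 mouse genes, 19 of the 31 countable members were tested and 17 were higher in IP; none was lower. Of all genes tested, 39.9% were called higher and 42% lower. Among tested genes under 1 CPM in Input, however, 91.6% of 5677 were called higher and 0.669% lower, and 16 of the 19 Hox genes were under that level. A gene so low in Input passed the count filter largely through its IP libraries and had to be higher there, so the count over these members says nothing particular to Hox genes. The median log2 IP/Input was 5.26 over the 19 members, 4.93 over all tested genes under 1 CPM and -0.17 over all genes tested. The remaining 12 countable members did not pass the count filter.

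Sizes differed among the members. For the 16 under 1 CPM in Input the filter worked largely through IP, so their adjusted p-values carry no separate support. Hoxb2 had the highest log2 IP/Input, 9.04 (SE 0.91, adjusted p = 1.62e-07), on a single Input count. Hoxb7 followed with 8.29 (SE 0.69, adjusted p = 1.6e-08) and Hoxa7 had 7.03 (SE 0.53, adjusted p = 5.62e-09). Hoxb5, Hoxb3 and Hoxa9 lay between these, at 7.62, 7.17 and 7.04, and their intervals of 1 SE overlapped that of Hoxb7. Hoxa10 had 6.5, Hoxd11 5.97, Hoxb6 5.96, Hoxd13 5.26, Hoxd8 4.36, Hoxc5 4.31, Hoxb13 3.74, Hoxc11 3.34 and Hoxc4 2.21. Hoxc13, at 1.23 (SE 0.50, adjusted p = 0.0316), lost its call in 8 of 15 alternatives and stood at 0.01 without IP replicate 2. Hoxc4 lost its call without IP replicate 3 (1.64). Hoxb9 (0.31, adjusted p = 0.568) and Hoxc12 (0.29, adjusted p = 0.575) did not pass. The 3 members at 1 CPM or more in Input had the 3 smallest values of the 19. A ratio over Input is larger where Input is small, so this order says nothing particular to Hox genes. When any of the 3 Input libraries was left out, 7 members were tested and 7 called, because the median library was then an IP library and the filter rose with it.

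Members that did not pass the filter are given as ratios of pooled CPM with exact intervals that cover counting error only. Reads copied by PCR are not separate molecules, and whether they were removed before counting is not given. Hoxb1 had 6, 0 and 2 IP counts against 0, 1 and 0 in Input, a ratio of 468 (95% interval 62.8 to 20778). Hoxd1 had 0, 1 and 9 against 0, 0 and 1, a ratio of 585. Hoxa13, with 1, 7 and 0 IP counts and none in Input, was at least 156-fold higher against a floor of 3 counts over the Input group, taking its IP counts as they were, and Hoxd12, with 4, 0 and 1, at least 97.6-fold higher. Each bound rested on 1 library, since 1 IP count remained for Hoxa13 without replicate 2 and for Hoxd12 without replicate 1, which gives no fold. Hoxb4 had 2, 0 and 4 IP counts against 3, 9 and 1, a ratio of 27.0 (8.42 to 76.2). Hoxa2, Hoxd3 and Hoxd10 were at 0 in IP with 1 Input count each, of which Hoxd3 had 1.44% of its body countable.

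**Figure D2:**
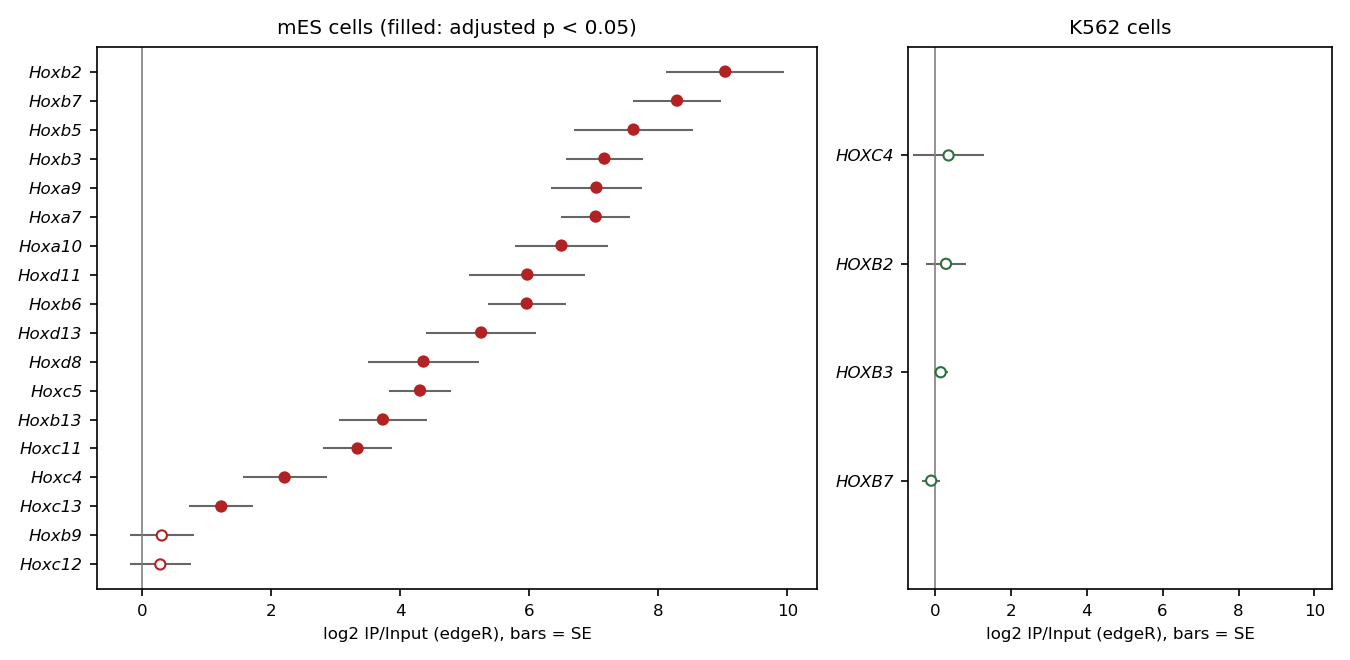
Fitted log2 IP/Input of tested Hox genes in mES cells (left, 18 genes) and K562 cells (right, 4 genes) on the same horizontal scale; bars are standard errors and filled points passed an adjusted p of 0.05. The 16 filled mES points run from 1.23 to 9.04, and the 4 K562 points lie between -0.09 and 0.36.

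Density of IP signal was compared with other coding genes after these values were seen. The 28 countable Hox genes under 1 CPM in mES Input had a median of 1.64 IP CPM per kb of countable body, against 0.184 (quartiles 0 and 0.616) for 8775 other coding genes under 1 CPM, and 1.14 for 12640 coding genes at 1 CPM or more. Their Input median was 0.0132 CPM per kb, against 0.00248 in the former set. In K562 cells the 23 Hox genes under 1 CPM had a median of 0 in IP (upper quartile 1.18), as did 7288 other coding genes under 1 CPM (upper quartile 0.154), at a depth where 1 count stood for about 9 to 11 CPM.

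The peak lists of the 3 mES IP libraries held 11146, 15404 and 15797 m5C peaks, of which 15, 25 and 21 lay in the Hox clusters, from the first to the last gene of each. This made 61 peaks in 492 kb, or 4.13 per 100 kb and list, against 0.518 over the genome. Hoxb had 27 peaks (5.17 per 100 kb and list), Hoxa 18 (5.70), Hoxc 12 (3.46) and Hoxd 4 (1.38). Peaks were absent from most of the Hoxd cluster, which also had the lowest sums in Input and in IP.

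After merging per strand, the 61 peaks made 48 regions, of which 12 recurred in at least 2 lists (25%, against 13.7% of 35162 regions over the genome) and 1 in all 3. That region spanned the annotated start of Hoxc8, a gene that the count files could not measure, and lay within the longer body of Hoxc5. Only the peak of replicate 1 reached the Hoxc8 body itself, and the bases shared by the 3 lists lay upstream of the start. A peak overlapped the body of 22 of the 39 genes (56.4%), against 35.1% of 21879 other coding genes and 26.3% of the 15414 whose body length was within the range of the Hox genes, with 11 peaks in the long body of Hoxa3, 7 in Hoxb7, 6 in Hoxc5 and 5 in Hoxb3. Hoxa3 and Hoxc5 enclose other Hox genes. Neither Hoxc12 nor Hoxa9 had a peak. Of the 61 peaks, 39 were recorded on the strand opposite to the Hox genes. Over all coding exons 64.5% of peaks were likewise on the opposite strand, so it is uncertain whether the recorded strand is that of the RNA, and it is given as recorded.

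The sequences of 5 recurring regions are shown because they fell into different kinds. They were read from the GRCm38 reference on the recorded strand, 5′ to 3′. Capitals mark uninterrupted alternations of G and A of at least 10 bases. The first 3 end in such a repeat, and the last 2, from an exon of Hoxb7 and the start of Hoxb4, have none.
Hoxa7 body, chr6:52221234-52221426, minus, replicates 1 and 2: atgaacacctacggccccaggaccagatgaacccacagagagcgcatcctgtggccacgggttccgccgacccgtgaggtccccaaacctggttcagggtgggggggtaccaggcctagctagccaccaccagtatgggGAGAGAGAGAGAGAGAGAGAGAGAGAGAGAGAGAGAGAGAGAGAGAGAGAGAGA
Hoxa3 body, chr6:52173481-52173640, minus, replicates 1 and 2: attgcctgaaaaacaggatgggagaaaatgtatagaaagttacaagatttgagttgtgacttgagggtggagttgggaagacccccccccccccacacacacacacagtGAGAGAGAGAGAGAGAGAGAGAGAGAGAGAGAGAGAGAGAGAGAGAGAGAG
Hoxa3 body, chr6:52188654-52188816, minus, replicates 1 and 2: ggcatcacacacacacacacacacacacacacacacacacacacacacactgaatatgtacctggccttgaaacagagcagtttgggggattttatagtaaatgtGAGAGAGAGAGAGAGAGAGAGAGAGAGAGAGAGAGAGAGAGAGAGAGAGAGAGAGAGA
Hoxb7 exon, chr11:96287019-96287258, minus, replicates 2 and 3: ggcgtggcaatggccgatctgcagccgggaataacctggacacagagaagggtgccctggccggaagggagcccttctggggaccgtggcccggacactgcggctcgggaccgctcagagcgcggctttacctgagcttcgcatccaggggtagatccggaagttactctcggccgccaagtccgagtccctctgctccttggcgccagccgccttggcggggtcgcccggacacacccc
Hoxb4 start, chr11:96318095-96318281, minus, replicates 2 and 3: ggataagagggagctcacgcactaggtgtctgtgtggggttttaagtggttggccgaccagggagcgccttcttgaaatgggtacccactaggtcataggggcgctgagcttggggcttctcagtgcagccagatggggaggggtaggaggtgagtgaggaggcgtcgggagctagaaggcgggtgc

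The GA run measured 54 bases in the Hoxa7 region, and 51 and 58 in the Hoxa3 regions, and a run of 52 bases lay in another recurring region, over the long noncoding gene Gm53 between Hoxb13 and Hoxb9. The letters GAGAGAGAGA stood on the recorded strand in 10 of the 48 Hox regions (20.8%) against 6.5% of 34977 regions over the chromosomes, and in 5 of the 12 recurring ones (41.7%), against 4.59% of 4686 recurring regions. TCTCTCTCTC, the same motif on the other strand, stood in 2 of 48 (4.17%), against 2.55%. The motif stood in none of the 24 promoter windows of 22 Hox genes that RefSeq (GRCm38.p6) gave, each 300 bases long, and in 1.08% of 32851 windows over all genes. Of the 2 regions shown without a run, that of Hoxb7 held 21 CpG in 240 bases and that of Hoxb4 held 7 in 187. The Hoxa7 region, which has a run, held 6 in 193, so CpG content did not separate the 2 kinds. The median region in the Hox clusters had 57.3% GC, against 50.7% over all regions, and a share of C on the recorded strand of 25.7%, against 25.3%. Such repeats can be aligned to many places, and the deposited lists had no peak score with which to rank the regions.

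**Figure D3:**
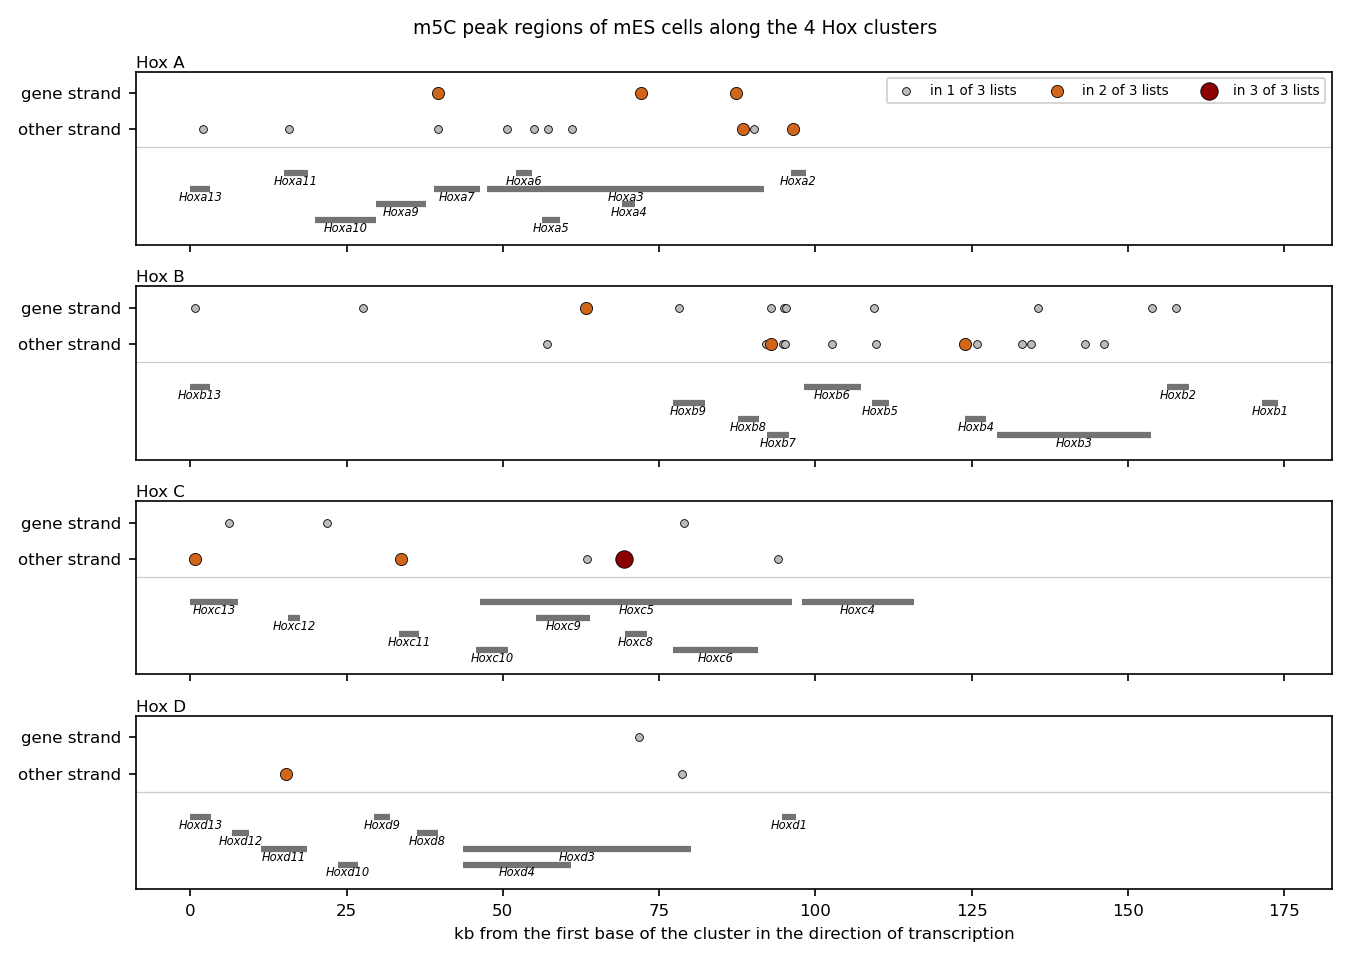
m5C peak regions along the 4 mouse Hox clusters, as distance in kb from the cluster's first base in the direction of transcription; circles show regions recorded on the strand of the genes (upper row) or the other strand (lower row), sized by the number of lists that hold them, and grey bars are gene bodies. Hoxb and Hoxa hold most of the regions, Hoxd holds 3, and the only region in all 3 lists lies at Hoxc8.

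K562 cells differed from mES cells mainly in the HOXB cluster. HOXB3 (ENSG00000120093.12, chr17:48548870-48604912 of GRCh38, minus strand) had 1864, 1773 and 1589 Input counts, or 154 ± 2.74 CPM (SD, n = 3). HOXB7 (ENSG00000260027.5, chr17:48607232-48633572) had 1192, 1185 and 1034 counts (101 ± 2.03 CPM) and HOXB2 (ENSG00000173917.11, chr17:48540894-48545109) had 228, 245 and 216 (20.4 ± 1.04 CPM). HOXB3 and HOXB7 took 90% of the 9600 Hox counts. Per kb of countable body the order was HOXB7 with 5.87 ± 0.118, HOXB2 with 4.83 ± 0.246 and HOXB3 with 3.96 ± 0.0706 CPM per kb, so the 3 genes were within a narrow range. Of the HOXB3 body 69.4% was countable and of the HOXB7 body 65.1%. HOXB4, HOXB5, HOXB8 and HOXB9 had no countable base and HOXB6 had 80 countable bases, with 0, 0 and 1 counts. The HOXB3 body encloses HOXB4 and HOXB5 and overlaps HOXB6, and the HOXB7 body encloses HOXB8 and HOXB9. Counts of HOXB3 and HOXB7 thus come from long stretches of the cluster, and which transcripts gave them was not tested.

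Outside HOXB, HOXC4 had 72, 84 and 63 Input counts (6.45 ± 0.717 CPM) and HOXC12 had 11, 7 and 7. HOXD3 had 2, 3 and 3, HOXC13 had 3, 0 and 3, HOXC11 had 2, 0 and 2, HOXD8 had 2, 0 and 0 and HOXB13 had 1, 0 and 1. Many acute leukaemias express HOXA genes. The 8 countable of the 11 HOXA members had 4 counts in all, led by HOXA3 with 0, 2 and 0. HOXA4, HOXA5 and HOXA6 could hold no count, so nothing is said of their level. Of the HOXA genes HOXA7, HOXA9, HOXA10 and HOXA13, and of the HOXD genes HOXD1, HOXD9, HOXD11, HOXD12 and HOXD13, were at 0 in every Input library; HOXA9 and HOXA10 had only 8.61% and 2.57% of their bodies countable. The cluster sums were 275 ± 3.57 CPM for HOXB, 7.52 ± 0.418 for HOXC, 0.323 ± 0.0325 for HOXD and 0.115 ± 0.133 for HOXA, and HOXB took 97.2% of the Hox counts. By position, anterior members summed to 181 ± 2.37 CPM, central ones to 101 ± 1.97 and posterior ones to 1.18 ± 0.288, whereas the posterior sum was the highest in mES cells. The sums of the 2 lines rest on unlike gene sets: Hoxb9, at 3.70 CPM in mES Input, has no countable base in human. Only 4 of 11 central human members were countable, and HOXB7 made nearly all of their sum. The long body of HOXB3, which encloses central genes, likewise made most of the anterior sum.

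In K562 IP the Hox genes had 128 counts in all. HOXB3 had 19, 22 and 21 IP counts (200 ± 24.8 CPM), HOXB7 had 15, 9 and 10 (109 ± 29.1 CPM) and HOXB2 had 5, 3 and 1. HOXC4 had 0, 2 and 1 and HOXC12 had 1, 0 and 2. HOXB therefore stood at 340 ± 23.6 CPM in IP, with a range of 315 to 361 that lay above its Input range of 271 to 278. HOXD stood at 28.5 ± 7.90, HOXA at 22.02 ± 21.1 and HOXC at 19.8 ± 11.6. The last 3 sums were each of 6 to 9 counts over the 3 libraries. HOXA13 had 4, 1 and 0 IP counts with none in Input, at least 181-fold higher against a floor of 3 counts over the Input group but with 1 IP count left without replicate 1, and HOXD13 had 1, 1 and 1 with none in Input. Of the 27 countable members, 13 had no IP count, at a depth where 3 counts stood for about 30 CPM, among them HOXA2, HOXA7, HOXA9, HOXA10, HOXA11, HOXB6, HOXB13, HOXC10, HOXC11, HOXC13, HOXD8 and HOXD9.

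**Figure D4:**
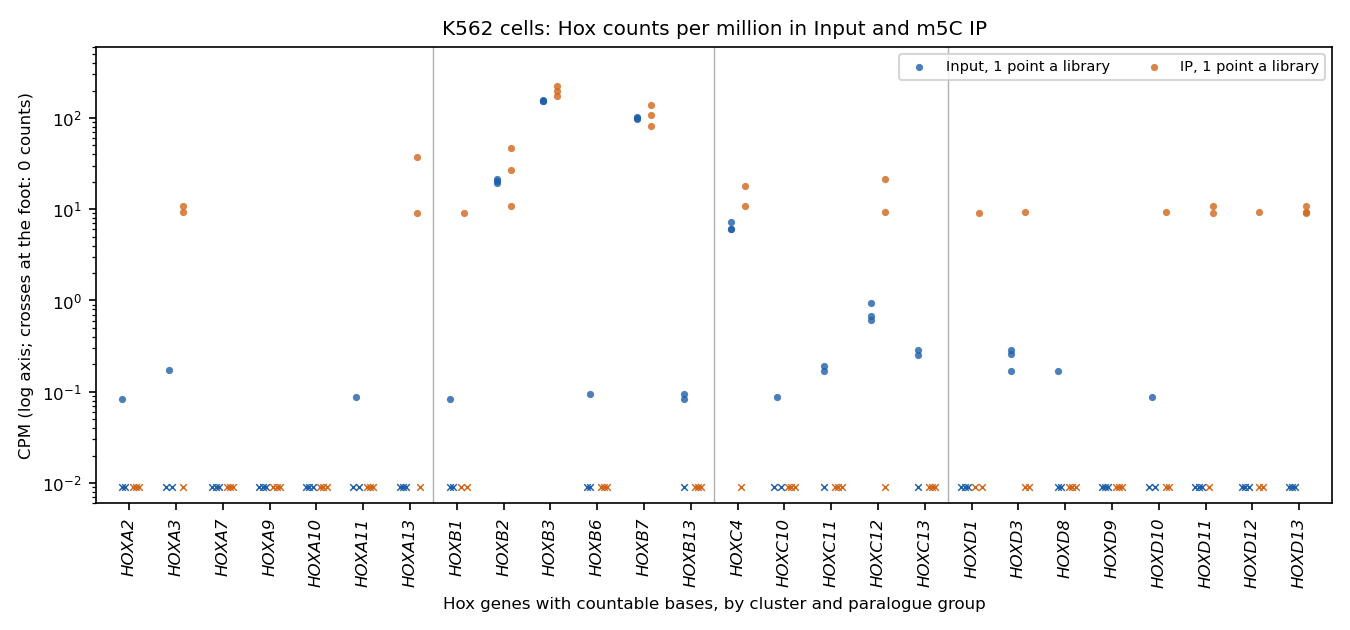
Level in CPM of 26 countable human HOX genes in K562 cells, on a log axis, with 1 point for each of the 3 Input (blue) and 3 IP (orange) libraries and crosses at the foot for libraries with 0 counts. HOXB2, HOXB3 and HOXB7 have Input and IP points at similar heights, and the HOXA genes are almost all at 0.

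Only 4 of the 27 countable members were tested for log2 IP/Input in K562 cells, and edgeR called none, with 0 at an unadjusted p under 0.05 and 0 by DESeq2, while 15.1% of 14522 genes were called higher and 16.4% lower. HOXB3 had 0.16 (SE 0.19, adjusted p = 0.568), HOXB2 0.30 (SE 0.52, adjusted p = 0.721), HOXC4 0.36 (SE 0.94, adjusted p = 0.818) and HOXB7 -0.09 (SE 0.24, adjusted p = 0.819). The pooled CPM of HOXB3 was 1.29 times as high in IP as in Input (95% interval 0.985 to 1.65) and that of HOXB7 1.08 times (0.747 to 1.51). HOXB3 was called higher without K562 Input replicate 1 (0.61), 2 (0.60) or 3 (0.59), where 3721 to 3726 genes passed the filter, and stood at 0.15 to 0.17 in the same fits over the full gene list. HOXC12 was tested and called higher without IP replicate 2 (4.02). With no count filter 5 members were called higher, HOXA3, HOXA13, HOXC12, HOXD11 and HOXD13.

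The IP/Input values of the lines were then compared by the interaction of line and library kind over 14242 genes of shared symbol, of which 18.2% were called higher in K562 and 13.7% lower. Of 19 Hox genes tested, 12 had a K562 group at or near 0 and no usable standard error, and HOXD11 and HOXD13 had no K562 Input count, so that no difference is given for them. Of the other 5, 3 were lower in K562 than in mES cells and none was higher (DESeq2 called HOXB9, which is not countable in human, higher). HOXB3 differed by -7.46 (SE 0.51, adjusted p = 1.33e-12), HOXB7 by -8.80 (SE 0.63, adjusted p = 4.07e-12) and HOXB2 by -9.00 (SE 0.87, adjusted p = 2.09e-09), each called in every alternative in which it was tested. HOXC4 (-2.39, adjusted p = 0.0717) and HOXC12 (2.66, adjusted p = 0.115) did not pass. The 3 genes that differed were also those with the highest Input in K562 and few Input counts in mES cells.

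Input levels were compared between the lines over 12933 shared genes, where 44% were called higher in K562 and 49.4% lower, so that a call was the common outcome. HOXB2 was higher in K562 by 10.31 (SE 0.28), HOXB3 by 10.11 (SE 0.10), HOXB7 by 9.73 (SE 0.12) and HOXC4 by 3.04 (SE 0.22) on the log2 scale. The posterior genes of HOXC were lower, HOXC13 with -4.20 (SE 0.39), HOXC11 with -2.40 (SE 0.61) and HOXC12 with -2.35 (SE 0.26). Their adjusted p-values ran from 1.64e-49 for HOXB3 to 0.000388 for HOXC11. HOXB9 was also called lower, but human HOXB9 had no countable base, so this call compares a measured gene with an unmeasured one. With an offset for countable length, 7 members were tested and the same 4 higher and 3 lower genes were called; the HOXB7 difference was then 7.48, since its countable body is longer in human.

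**Figure D5:**
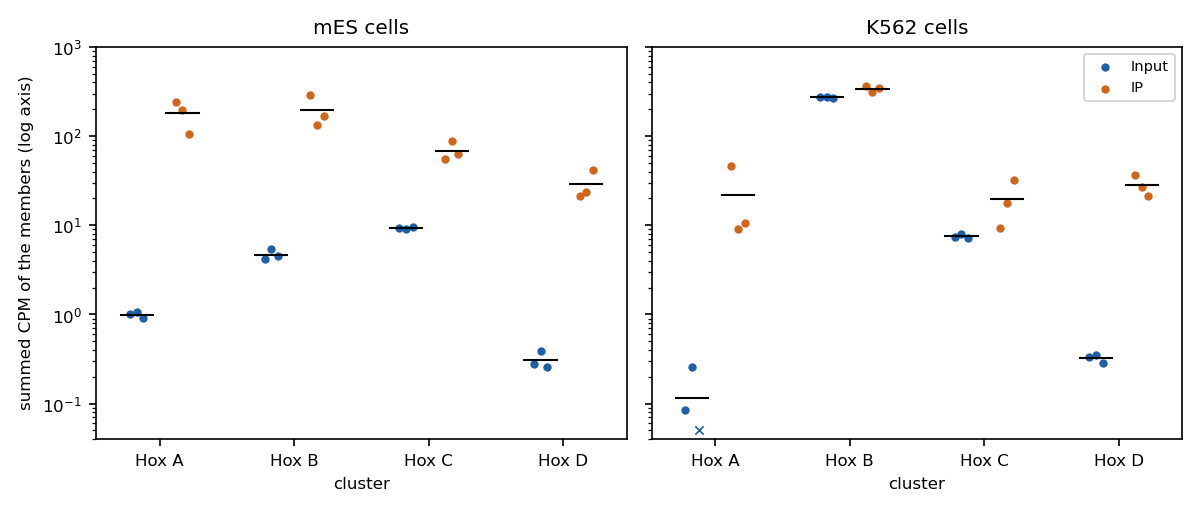
Summed CPM of the members of each Hox cluster in mES cells (left) and K562 cells (right), on a log axis; points are the 3 Input (blue) and 3 IP (orange) libraries, black lines are means and the cross is a library with 0 counts. IP exceeds Input in all 4 mES clusters, and HOXB lies above the other K562 clusters in both kinds.

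Genes that work with or beside the Hox genes were described from fixed lists. The TALE proteins of the Pbx, Meis and Pknox families bind DNA together with Hox proteins. In mES cells 1 of 9 was higher in IP and 4 were lower. All 9 were at 1 CPM or more in Input, where 19.7% of 14567 tested genes were higher and 58.2% lower. Meis1 was the one that was higher, with 253, 274 and 257 Input and 28, 15 and 26 IP counts (log2 IP/Input 1.39, adjusted p = 0.000234), and Pbx3, the highest in Input, had -1.89. In K562 cells 1 of 8 tested was higher and 2 were lower, MEIS2 (-0.89) among them, against 15.1% and 16.4% of all tested genes. In Input, 5 of 9 were higher in K562 and 4 lower, against 44% and 49.4% of all shared genes tested. MEIS1 was higher by 3.52 and MEIS2 by 2.65 on the log2 scale.

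The MLL complex and its partners, which keep Hox genes active, were lower in IP in mES cells for all 13 listed genes, all at 1 CPM or more in Input, where 58.2% of 14567 tested genes were lower and 19.7% higher, with Aff1 at -1.93 and Mllt10 at -2.19, and Wdr5 lowest at -2.48. In K562 cells 4 of 12 tested were lower and 1 was higher, DOT1L (0.45), against 16.4% and 15.1% of all tested genes. In Input 3 of 13 were higher in K562 and 10 lower, against 44% and 49.4%. The ParaHox, Cdx and Evx genes, the nearest homeobox relatives of the Hox genes, resembled the low Hox genes in mES cells: 6 of 7 tested were higher in IP. This share is near that of all genes under 1 CPM in Input (91.6%). Evx2, beside the Hoxd cluster, had 0, 0 and 0 Input and 10, 4 and 12 IP counts, and Cdx2 had 7, 7 and 10 against 13, 17 and 15 (log2 IP/Input 5.77). Cdx1, with 1189, 1371 and 1465 Input counts, was lower at -1.68. None of 8 could be tested in K562 cells.

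Of 43 noncoding genes within the mouse clusters, 10 were tested, 7 higher and 1 lower in IP. All 7 were under 1 CPM in Input, where 91.6% of tested genes were higher. Hoxb5os, antisense to Hoxb5 and Hoxb6, had 0, 3 and 0 Input and 38, 41 and 28 IP counts (log2 IP/Input 9.76, adjusted p = 1.68e-09), and Hoxaas3 had 12, 8 and 12 against 22, 46 and 47 (6.68). Gm53 was the most abundant transcript counted within a mouse Hox cluster, with 1755, 2124 and 2128 Input counts, and was the one that was lower (-0.89, adjusted p = 0.00053). Hotairm1, in the Hoxa cluster, had 62, 54 and 85 Input and 2, 0 and 0 IP counts and did not pass (-1.73, adjusted p = 0.108). Of 54 such human genes, 5 were tested and 1 was higher, against 15.1% of all tested genes in K562 cells. It was HOXB-AS3, with 151, 97 and 105 Input and 7, 7 and 3 IP counts (2.18, adjusted p = 9.36e-05). The coding genes that flank the clusters, 2 on each side, were all at 1 CPM or more in mES Input, and 12 of 16 were lower in IP, against 58.2% of tested genes at that level, Cbx5 with -2.12 among them, and 1 was higher, Skap1, with 78, 96 and 87 Input and 105, 119 and 85 IP counts (5.15). In K562 cells 4 of 15 were lower in IP and 2 higher, SKAP1 (4.90) among them, against 16.4% and 15.1% of all tested genes.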

How the data were processed

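The m5C meRIP–seq data comprised 12 libraries of caRNA: 3 Input and 3 IP from mES cells and the same from K562 cells. For every library the authors deposited whole-number counts by gene, not normalized, and for each mES IP library a list of MACS2 peaks without usable scores. The submitters' processing notes name Trimmomatic 0.39, HISAT2 2.1.0, SAMtools 1.16.1 and MACS2 2, with the builds mm10 and hg38. For m5C meRIP–seq the methods of the study state that duplicates were marked with Picard and reads split by strand before peaks were called. They name HTSeq and featureCounts for RNA-seq, while the tool behind these tables, its strand setting and any removal of duplicates before counting are not given in the sources used here.

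Gene bodies were those of the GENCODE releases at hand, M21 for GRCm38 and 44 for GRCh38, which differ from the releases of the study; 99.9% of mouse and 99.1% of human identifiers matched. Summary lines stayed out of library sizes; they made 19.0% to 19.3% of records in mES Input, 71.4% to 71.7% in mES IP, 26.0% to 26.2% in K562 Input and 60.7% to 61.4% in K562 IP. Levels were planned per kb of exonic length and are given per kb of countable body, because the counts proved to cover whole bodies.

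The test was that of edgeR 4.0.16, run in R 4.3.3 (TMM, filterByExpr, glmQLFTest, two-sided, Benjamini-Hochberg at 0.05), each line alone, then jointly for shared symbols with TMM factors within each line. The standard error was the absolute log2 value over the square root of F. Intervals of pooled ratios are exact (95%) and, like the floor of 3 counts, cover counting error only. Peaks were merged per strand at 1 bp of overlap in Python 3.11.15, and bedtools 2.31.1 intersected them with exons. Alternatives were DESeq2 1.42.0, other scalings, filters and offsets, thinned Input and libraries left out. On simulated counts with 200 changed genes, 197 were recovered in the mES fit (20244 genes), 197 in the K562 fit (14522), 191 in the joint fit (14242) and 197 in the Input fit (12933).

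Named were, per line, the 10 members of highest Input CPM per exonic kb, every member past the threshold, the highest member of each cluster and members at 0; from each list, the genes of highest Input or largest called ratio. Other members and list genes were named after their values were seen. Members and lists were chosen with earlier results of these data known. One member of each line, a cofactor gene and a region sequence are counted in the totals and not reported here by value.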

Additional observations from a re-analysis of the deposited data

Results flagged for a closer look

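In 3 genes the IP/Input ratio differed between the lines by the interaction of line and library kind: HOXB2 by -9.00, HOXB3 by -7.46 and HOXB7 by -8.80 on the log2 scale (K562 minus mES, edgeR). All 3 libraries of each mES group had few Input counts for these genes (1, 13 and 11 in sum), and all 3 K562 Input libraries had many (689, 5226 and 3411 in sum). In mES cells IP exceeded Input in 3 of 3 libraries for each gene. In K562 cells the IP and Input values overlapped for HOXB2 and HOXB7. For HOXB3 all IP values lay above all Input values, as in 22.4% of the K562 genes tested. With the K562 Input libraries summed to 1, each of the 3 stayed past the threshold.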

How the results depend on the processing

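Depth set what could be tested. With Input thinned to IP depth 5 members were tested and called in mES cells (6149 genes in all), 1 was called in K562 cells (512 in all), and 1829 genes differed between the lines. Without a count filter 8237 K562 genes were called, 5 of them Hox genes, and 9 Hox genes were lower in K562 Input. With the K562 Input libraries summed to 1, 732 K562 genes were called and 8 Hox genes were lower in K562 Input, and DESeq2 called 1 Hox difference between the lines higher. Scaling moved the median log2 IP/Input of all mES genes from -0.17 to 0.83 when library size alone was used, and the share of calls that were higher from 48.7% to 67.9%; the K562 share went from 47.9% to 70.2%, to 57.1% with RLE scaling and to 64.8% with DESeq2, and the share of differences between the lines went from 57.1% to 39.9% with library size alone and 30.3% with a GC correction. The cause was not tested.

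Values that did not pass the test turned sign. Without a count filter log2 IP/Input was -0.13 for Hoxb9, -0.15 for Hoxc12, -0.19 for HOXB3 and -0.051 for HOXB2. With a GC correction it was -0.36 for Hoxc12 and -0.011 for HOXB2. HOXB7 was 0.026 with RLE scaling, 0.17 with library size alone, 0.026 with DESeq2, 0.58 with thinned Input and 0.27 with summed Input. With 1 library left out and the filter set anew, Hoxb9 ran from -0.34 to 0.70, Hoxc12 from -0.15 to 0.75, HOXB3 from -0.014 to 0.61, HOXB2 from -0.34 to 0.55, HOXB7 from -0.40 to 0.36 and HOXC4 from -0.66 to 0.90. Over the full gene list the ranges were -0.34 to 0.75, -0.096 to 0.75, 0.079 to 0.24, -0.26 to 0.64, -0.32 to 0.084 and -0.60 to 0.97. The counts then ran from 9236 to 16165 genes and 7 to 16 higher Hox genes in mES cells, 1090 to 4394 genes (4492 at most over the full gene list) and 0 to 1 Hox genes in K562 cells, 3346 to 4951 differences between the lines with 3 to 4 Hox genes lower, and 3 to 7 Hox genes lower in K562 Input. HOXB2, HOXB3 and HOXB7 kept their difference between the lines in the 32, 33 and 33 alternatives in which each was tested.

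Per kb of exonic length the rank correlation of mES Input level with paralogue number was -0.679 in Hoxa, 0.714 in Hoxc and 0.190 in Hoxd. Scaled to all counted records, the mES sums were 0.802 CPM in Input and 51.7 in IP for Hoxa, 3.80 and 56.1 for Hoxb, 7.47 and 19.4 for Hoxc, and 8.24 in IP for Hoxd, and the K562 sums 203 and 132 for HOXB, 5.55 and 7.74 for HOXC and 0.239 and 11.1 for HOXD. With TMM-scaled CPM the mES Input sums were 1.41, 6.67, 13.1 and 0.439 for Hoxa to Hoxd, the Hoxc IP sum 49.6, and the K562 Input sums 303.6, 8.29 and 0.357 for HOXB to HOXD. Without its highest member, Hoxa summed to 0.489 in Input and 50.9 in IP, Hoxb to 1.00 in Input, Hoxc to 5.45 and 45.9 and Hoxd to 0.181 in Input, and HOXB to 121 and 140.1, HOXC to 1.06 in Input and HOXD to 0.0851 and 18.8. Of the peak regions 12 were in at least 2 lists and 1 in all 3. Genes with a peak numbered 12 on their own strand, 10 with peaks in at least 2 lists and 2 with peaks in all 3 lists by the merged regions. Without 1 list, 36 to 46 peaks lay in the clusters and 17 to 20 Hox genes had a peak.

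Whether replicate numbers pair the libraries is open. Deviations of same-numbered Input and IP libraries correlated by 0.0316, 0.0481 and 0.0383 in mES cells and by -0.000499, -0.000597 and 0.0785 in K562 cells. Pairs of unlike number ran from -0.0354 to -0.00137 in mES cells and from -0.0770 to 0.0727 in K562 cells. With the replicate block, 16 Hox genes were higher in mES cells (15434 genes in all), 0 in K562 cells (3940 in all) and 3 were lower in the difference between the lines (4632 in all). In mES cells each IP library correlated best with the Input library of its own number, a hint from the data and not from the design.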
